A study of Bos taurus with 22 samples.

Results

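The miRNAs described here belong to the imprinted DLK1-DIO3 locus, which lies near the end of bovine chromosome 21. They were chosen by position, with earlier results of these data known. The rule took every bovine row of the count table on chromosome 21 between 65.8 and 66.1 Mb of the bosTau4 assembly. The many-membered miR-2284 and miR-2285 families were left out. The rule gave 54 mature miRNAs of 611 bovine rows and 844 rows in all, and rows with few reads were included. All 54 were annotated on the plus strand. All 54 matched, by name, an miRNA gene that RefSeq (ARS-UCD2.0) lists between DLK1 and DIO3. The matched genes did not all follow there the bosTau4 order, which is the order used here. The miRNAs given as markers of the locus, miR-410, miR-381, miR-665 and miR-127, were among the 54.

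Jugular plasma was taken with EDTA from 11 Holstein-Friesian heifers on Day 60 of pregnancy and on Day 0, and the small RNA of each sample was sequenced, which gave 22 libraries paired by animal. The heifers were young, had not been inseminated before, had their oestrus synchronised by hormone treatment, and were inseminated artificially at the oestrus that defines Day 0. All 11 were found pregnant by ultrasound, so the days compare the same animals and there was no group of non-pregnant heifers at the later day. The passing of time and pregnancy therefore cannot be told apart. Plasma holds miRNAs released by many tissues, and fewer releasing cells of a type and less miRNA per cell cannot be told apart in it.

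DLK1-DIO3 is a locus of parent-of-origin expression in mammals. The protein-coding genes DLK1, RTL1 and DIO3 are read from the chromosome inherited from the father. The non-coding RNAs MEG3, MEG8 and MEG9, together with the miRNAs, are read from the maternal chromosome and are thought to be cut from long shared transcripts. In humans the larger group of these miRNAs is known from placenta and brain, and it has been followed in the blood of pregnant women. Allelic origin was not measured in plasma, so imprinting here is background to the name of the locus.

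The 54 miRNAs fell into 2 stretches of DNA separated by 104695 bases. The upstream stretch ran from 65852880 to 65896056 and held 7 miRNAs in the order miR-493, miR-665, miR-433, miR-127, miR-432, miR-136 and miR-370. Several of these lie opposite the RTL1 gene, and in the mouse miR-127 and miR-136 are antisense to Rtl1 and act on its transcript. The downstream stretch ran from 66000752 to 66043621 and held the other 47, from miR-379 to miR-656. RefSeq lists the start of MEG8 after MIR127 and before MIR379.

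Levels are given as RPMM, the reads of a miRNA in parts per 1000000 of all miRNA reads of its library, and each read stands for a whole mature miRNA, so reads were not divided by length. Total miRNA reads ran from 304117 in Day 60 heifer 17 to 12775451 in Day 60 heifer 31, and the Day 0 libraries held 1912290 to 6839128. In 314 cells the deposited RPMM departed by more than 0.2% from the scaling of its library, and both the count and the RPMM equalled those of a different library from that day. Of the 1188 cells of the 54 miRNAs, 22 were such repeats, in 21 miRNAs. Day 60 heifer 17 held 17 of them, which repeat heifer 31, and Day 0 heifer 14 held 5, which repeat heifer 24. They were left out of the levels below, because their reads equal those of another library. For example, the repeated 165 reads of miR-369-5p would give Day 60 heifer 17 a level of 543 RPMM. None of the repeats fell on an miRNA tested at 25 RPMM.

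The 54 miRNAs held 302010 reads over the 22 libraries, and most of them had few reads. miR-127 alone took 53.8% of these reads, and the 7 upstream miRNAs took 61.6% against 38.4% for the 47 downstream ones. After miR-127 the highest was miR-411a, with 6.01%. The filter of the test, which asks for over 25 RPMM in more than 8 of the 11 libraries on Day 60 or on Day 0, let 11 members pass, and these held 94.7% of the reads. A further 15 had more than 10 reads in at least 11 libraries, and 28 did not reach that. In 18 of the 28 no library exceeded 10 reads, and 7 had fewer than 10 reads over all libraries together. The plot of medians and ranges of all 54 miRNAs shows how steeply the levels fall off within the locus.

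**Figure D1:**
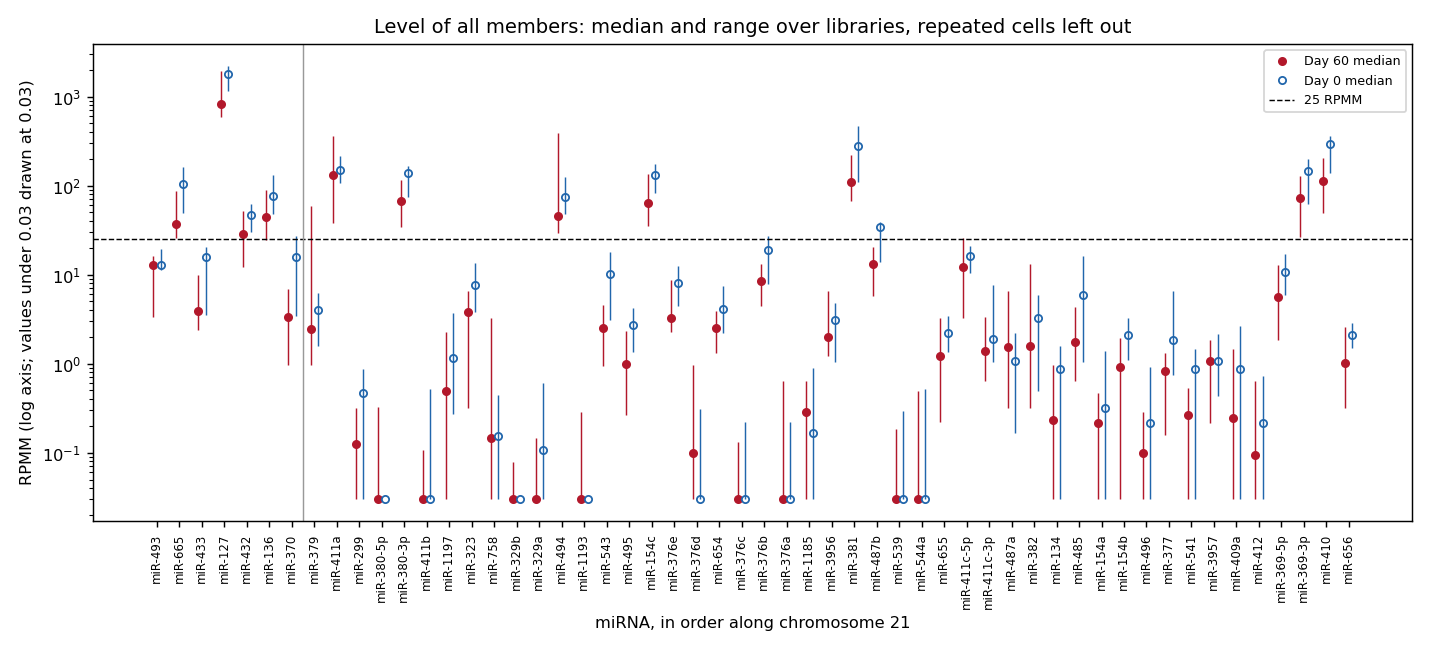
Median level in RPMM (points, log axis) and its range over libraries (vertical lines) for each of the 54 miRNAs on Day 60 (filled, left) and Day 0 (open, right), in order along chromosome 21; values under 0.03 RPMM are drawn at 0.03, the 22 repeated cells are left out, the grey line parts the 7 upstream from the 47 downstream miRNAs and the dashed line is 25 RPMM. miR-127 has the highest median on both days, 829 RPMM on Day 60 and 1773 RPMM on Day 0, and most miRNAs stay below the dashed line.

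Summed over the locus, the miRNAs took a smaller part of plasma miRNA on Day 60 in 10 of 11 heifers. The sum was lowest at 1117, had a median of 1930 and was highest at 3106 RPMM on Day 60, against 2181, 3506 and 4345 RPMM on Day 0. The lowest sums were those of heifer 29 on Day 60 and heifer 32 on Day 0, and heifer 28 had the highest on both days. The days overlapped. The share of all miRNA reads averaged 0.202% ± 0.0723 on Day 60 and 0.327% ± 0.0791 on Day 0 (SD, n = 11 each). Within heifers the mean log2 ratio of the sums was -0.74 (SD 0.59, n = 11), a ratio of 0.598, and heifer 31 alone was higher on Day 60. No test was made of this sum, since the miRNAs were chosen with results known. On TMM-normalised reads, which correct for unequal composition of the libraries, the mean log2 ratio was -0.55 and 8 of 11 heifers were lower. In RPMM, where 10 of 11 heifers were lower with miR-127 counted, the ratio without miR-127 was -0.80 and all 11 were lower. The sum without miR-127 was not taken on TMM-normalised reads.

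The part of miR-127 within the locus overlapped widely between the days. miR-127 took 42.9% to 63.1% of the members' reads on Day 60 (median 52.9%) and 47.6% to 56.3% on Day 0 (median 51.3%). The number of members with more than 10 reads was 9 to 34 per library on Day 60 and 21 to 32 on Day 0. With every library thinned to 304117 reads, the depth of the shallowest, it was 6 to 12 on Day 60 (median 9) and 9 to 12 on Day 0 (median 12). At that depth the count was lower on Day 60 in 7 heifers, equal in 3 and higher in 1.

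Day 60 was compared with Day 0 by edgeR's quasi-likelihood test on the counts of all 195 miRNAs above the filter, with heifer as a block. FDR is the Benjamini-Hochberg adjusted p over those 195, with a threshold of 0.05, and a negative log2 fold-change means a lower level on Day 60. Of the 11 tested miRNAs of the locus, 6 were lower and 0 were higher, which is 54.5% of them. Among all 195 the share called lower was 17.9% and the share called higher 17.4%. The median log2 fold-change was -0.64 over the 11 and -0.06 over all tested. Of the 11, 10 were negative, against 53.8% of all tested. Since the miRNAs were chosen with results known, these shares are given as a description. In the edgeR test 9 of the 11 had an unadjusted p under 0.05, none of them with a positive value. Over all 195, 92 had an unadjusted p under 0.05, in either direction. On TMM-normalised reads all 6 had a lower level in 10 of the 11 heifers, and 8.72% of all tested were lower in at least 10 heifers. The filter let miR-432 in through Day 0 only, with 6 Day 60 libraries above 25 RPMM, and the other 10 miRNAs through both days. With the level of erythroid miRNAs as a covariate 0 of the 11 passed and 0 of all 195 were called lower, as given with the blood cell markers.

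In the upstream stretch 1 of 4 tested miRNAs was lower, miR-665. Its levels were lowest at 25.6, with a median of 37.0 and a highest of 86.9 RPMM on Day 60, against 49.2, 105 and 161 RPMM on Day 0. The high Day 60 library was heifer 24 and the low Day 0 library heifer 32. The days overlapped, and 8 Day 60 libraries lay below every Day 0 library. miR-665 averaged 45.0 ± 19.5 RPMM on Day 60 and 103 ± 30.4 RPMM on Day 0 (SD, n = 11 each). edgeR gave it a log2 fold-change of -1.02 with an SE of 0.23 and an FDR of 0.00866. Among the 195 tested it had the 8th lowest fold-change, and heifer 32 was the one animal in which it was higher on Day 60.

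miR-127, the main miRNA of the locus in plasma, had a lowest level of 591, a median of 829 and a highest of 1946 RPMM on Day 60, against 1157, 1773 and 2224 RPMM on Day 0. Below the lowest Day 0 library, that of heifer 12, lay 7 Day 60 libraries, and the highest Day 60 library, that of heifer 26, lay within the Day 0 range. Its mean was 1095 ± 457 RPMM on Day 60 and 1688 ± 381 RPMM on Day 0 (SD, n = 11 each). With a log2 fold-change of -0.51 (SE 0.21) it did not pass the edgeR test at an FDR of 0.0698. It was lower in 9 of 11 heifers in RPMM and in 8 on TMM-normalised reads.

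miR-432 and miR-136 are its neighbours downstream, between 65869939 and 65870148. The levels of miR-432 were 12.3 at the lowest, 28.8 at the median and 52.4 RPMM at the highest on Day 60, against 30.2, 46.4 and 62.4 RPMM on Day 0. Its log2 fold-change was -0.52 (SE 0.22) with an edgeR FDR of 0.0698. For miR-136 they were 24.7, 44.1 and 90.2 RPMM on Day 60, against 48.3, 75.7 and 132 RPMM on Day 0. It had a log2 fold-change of -0.64 (SE 0.24) and lay just outside the threshold, at an edgeR FDR of 0.0530. Day 60 heifer 28 was the highest of its day for both, Day 0 heifer 31 the lowest of its day for both, and the days overlapped.

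In the downstream stretch 5 of 7 tested miRNAs were lower, and the median log2 fold-change was -0.69 over the 7 against -0.58 over the 4 upstream ones. The 5 stood along the whole stretch and not in 1 spot, with miR-380-3p near its start and miR-410 near its end. miR-411a and miR-494, which did not pass, lay among them.

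miR-410, at 66042784 to 66042804, is known in mouse islet cells for its effect on insulin release. On Day 60 it was lowest at 49.3, had a median of 112 and was highest at 206 RPMM, against 140, 293 and 358 RPMM on Day 0. The lowest library was Day 60 heifer 17, with 15 reads, and 7 Day 60 libraries lay below the lowest Day 0 library, that of heifer 32. Its mean was 124 ± 47.2 RPMM on Day 60 and 267 ± 69.0 RPMM on Day 0 (SD, n = 11 each). In RPMM it was lower in every one of the 11 heifers, and on TMM-normalised reads in 10. edgeR put its log2 fold-change at -0.94 with an SE of 0.23 (FDR 0.0108).

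miR-381, at 66021990 to 66022011, belongs to a run of miRNAs that neurons make together in rodents. It had a lowest level of 67.6, a median of 109 and a highest of 221 RPMM on Day 60, against 111, 279 and 470 RPMM on Day 0. Heifer 28 was the highest on both days and heifer 32 the lowest on Day 0, and 6 Day 60 libraries lay below it. The mean was 127 ± 50.9 RPMM on Day 60 and 285 ± 121 RPMM on Day 0 (SD, n = 11 each). Its log2 fold-change of -0.93 (SE 0.24) passed the edgeR test at an FDR of 0.0123.

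miR-369-3p, at 66042453 to 66042473, is known in human cells for binding the message of the cytokine TNF. Its lowest, median and highest levels were 26.5, 72.7 and 128 RPMM on Day 60, against 62.7, 144 and 201 RPMM on Day 0. Heifer 17 was the highest and heifer 10 the lowest on Day 60, and 5 libraries of that day lay below every Day 0 library. The log2 fold-change was -0.77 (SE 0.20), with an edgeR FDR of 0.0123.

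miR-154c and miR-380-3p were close to each other in level. miR-154c had 35.1, 64.1 and 134 RPMM at its lowest, median and highest on Day 60, against 81.5, 133 and 176 RPMM on Day 0. Its log2 fold-change was -0.69 (SE 0.19, FDR 0.0144 by edgeR). miR-380-3p had 34.4, 67.3 and 116 RPMM at the same points on Day 60, against 74.4, 137 and 164 RPMM on Day 0. With a log2 fold-change of -0.64 (SE 0.21) and an edgeR FDR of 0.0280 it was the nearest to the threshold of the 6 that passed. For both, Day 60 heifer 10 was the lowest library and Day 60 heifer 28 the highest of its day.

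miR-411a and miR-494 stood apart. miR-411a had a lowest level of 38.0, a median of 130 and a highest of 362 RPMM on Day 60, against 106, 149 and 213 RPMM on Day 0. The Day 60 libraries spread to both sides of the Day 0 range, with heifer 29 the lowest and heifer 28 the highest. edgeR gave it a log2 fold-change of 0.03 with an SE of 0.25 and an FDR of 0.931, and it was lower in 6 and higher in 5 heifers. Its sign turned with the scaling, to -0.16 with library totals and -0.14 with upper quartile factors.

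miR-494 had 29.4, 46.0 and 391 RPMM at its lowest, median and highest on Day 60, against 48.4, 75.2 and 126 RPMM on Day 0. The value of 391 RPMM came from Day 60 heifer 17, the shallowest library, and 6 of the other Day 60 libraries lay below every Day 0 library. Over all heifers edgeR put its log2 fold-change at -0.22 with an SE of 0.21 (FDR 0.439). Without heifer 17 it was -0.40 (SE 0.14) and passed, at an edgeR FDR of 0.0464. In the same fit miR-380-3p no longer passed, at an FDR of 0.0539, so that 6 miRNAs of the locus were lower with and without that heifer.

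**Figure D2:**
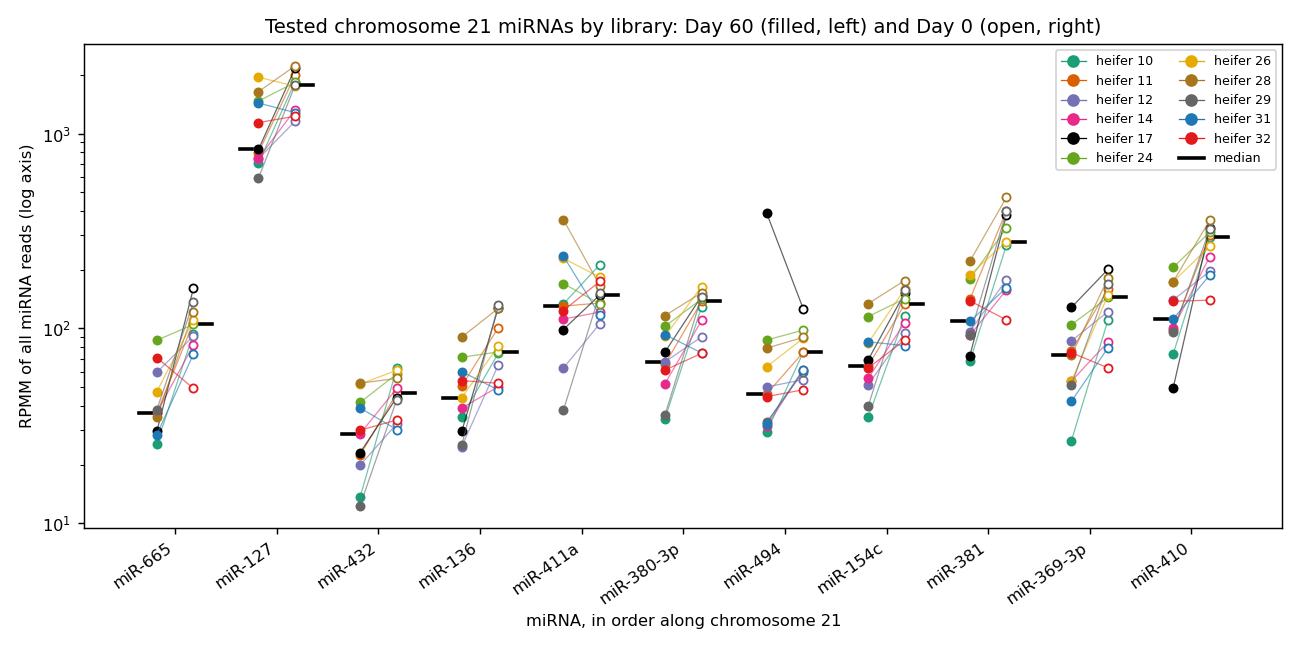
Level in RPMM, on a log axis, of each of the 11 tested miRNAs, with the 11 Day 60 libraries as filled points left of the 11 Day 0 libraries as open points, thin coloured lines joining the libraries of a heifer and black bars at the medians. In miR-410 all 11 lines run lower on Day 60, while in miR-411a they run both ways, and the point at 391 RPMM in miR-494 is Day 60 heifer 17.

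The heifers differed in how far the locus moved. In heifers 10, 11 and 29 all 11 tested miRNAs were lower on Day 60 on TMM-normalised reads, and the median difference over the 11 was -1.46, -1.20 and -1.51 on the log2 scale. Another 6, heifers 12, 14, 17, 24, 26 and 28, had 8 to 10 of the 11 lower, with medians of -0.91 to -0.35. Heifers 31 and 32 were the exceptions, with 5 and 4 of the 11 lower and medians of 0.48 and 0.04. In heifer 31 miR-665, miR-494, miR-381, miR-369-3p and miR-410 were lower while the other 6 were higher. With 1 heifer left out at a time, 5 to 9 miRNAs were lower. There were 5 without any 1 of heifers 10, 11, 28 and 29, 9 without heifer 31, and 6 to 8 without the others. Of all 195, the fits without heifers 10, 11, 28 and 29 called 23, 23, 18 and 27 lower. Without heifer 31 this number was 42, and without the others 28 to 56, so calls moved outside the locus as well. miR-665, miR-154c, miR-381, miR-369-3p and miR-410 passed in all 11 of these fits, whereas miR-380-3p did not pass without heifer 10, 11, 17, 28 or 29. miR-127 passed only without heifer 26, 31 or 32, miR-136 only without heifer 31 or 32, and miR-432 only without heifer 31.

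**Figure D3:**
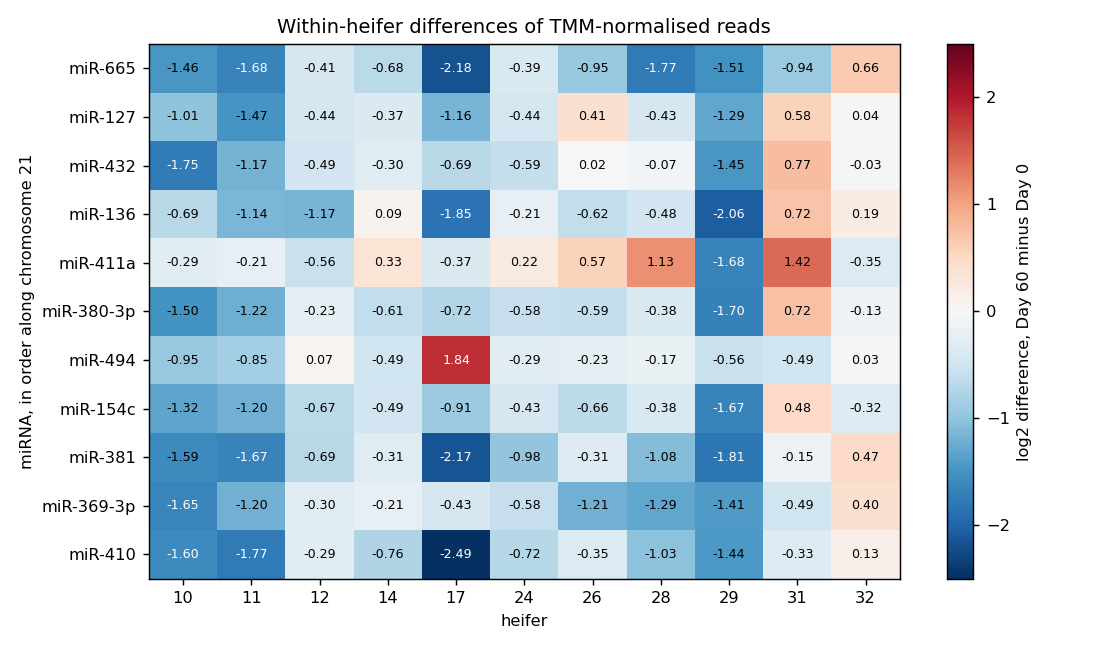
Difference of each tested miRNA between Day 60 and Day 0 within each heifer, on the log2 scale of TMM-normalised reads, with miRNAs down the page, heifers across, blue for lower and red for higher on Day 60. Heifers 10, 11 and 29 are lower in all 11 miRNAs, and heifers 31 and 32 in 5 and 4.

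A filter of 5 RPMM brought 9 more miRNAs of the locus into the test, 20 in all, among 265 miRNAs tested. Since 17 repeated cells belong to Day 60 heifer 17, their values are given from the fit without that heifer, an alternative chosen after the data were seen, in which 17.0% of all tested were called lower and 9.43% higher. In it 13 of the 20 were lower and 0 higher, 6 of them among the 9 additional ones. These were miR-370 and miR-433 upstream and miR-543, miR-487b, miR-376b and miR-376e downstream. Of the 6, only miR-487b and miR-376b passed the filter on both days. The other 4 passed it through Day 0 alone, the day on which they were high, so that their entry into the test favoured a lower level on Day 60 and their number is not support for one. With repeated cells left out, miR-370 and miR-433 each exceeded 5 RPMM in 4 Day 60 and 10 Day 0 libraries, miR-376e in 3 Day 60 and 9 Day 0 libraries, and miR-543 in 0 Day 60 and 10 Day 0 libraries. With all heifers and the tables as deposited, 11 of the 20 were lower and 0 higher, against 17.7% and 13.6% of all tested. miR-433 was the one of the 6 that did not pass there, with a log2 fold-change of -0.95 and an edgeR FDR of 0.119.

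The lowest log2 fold-changes of the 20 belonged to miRNAs that the filter let in through Day 0 alone, and they are given as a description. miR-370, the last of the upstream stretch, which in human liver cells acts on lipid metabolism, had 0.97, 3.36 and 6.95 RPMM at its lowest, median and highest on Day 60 in 10 libraries, against 3.42, 15.9 and 27.0 RPMM on Day 0. Above every Day 60 library used lay 10 Day 0 libraries, and the exception was heifer 32. The log2 fold-change was -1.83, with an edgeR FDR of 0.00947. miR-543 had 0.95, 2.51 and 4.57 RPMM on Day 60 in 10 libraries, against 3.12, 10.0 and 17.8 RPMM on Day 0, and a log2 fold-change of -1.60 (edgeR FDR 0.00785). miR-433, which in the mouse is antisense to Rtl1, had 2.39, 3.88 and 9.97 RPMM on Day 60 in 10 libraries, against 3.56, 15.9 and 20.4 RPMM on Day 0. Its log2 fold-change was -1.27 (edgeR FDR 0.0130).

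miR-487b was lower in all 11 heifers in RPMM, with 5.69, 13.1 and 20.4 RPMM at its lowest, median and highest on Day 60, against 13.8, 33.9 and 38.9 RPMM on Day 0. Its log2 fold-change was -0.87 (edgeR FDR 0.0180). Heifers were not counted on TMM-normalised reads for miR-487b or for miR-376e. miR-376e and miR-376b belong to a family known for RNA editing in human and mouse brain. miR-376e, at 2.27 to 8.69 RPMM on Day 60 against 4.46 to 12.5 RPMM on Day 0, was likewise lower in all 11 heifers in RPMM. The filter let it in through Day 0 alone, so its values are given as a description. Its log2 fold-change was -0.78 and that of miR-376b was -0.84, with edgeR FDRs of 0.0114 and 0.0194. miR-369-5p, which also entered through Day 0 alone, had -0.78 as well but did not pass, at an edgeR FDR of 0.0877. miR-493, with -0.32, and miR-411c-5p, with -0.24, did not pass either (edgeR FDR 0.288 and 0.395).

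**Figure D4:**
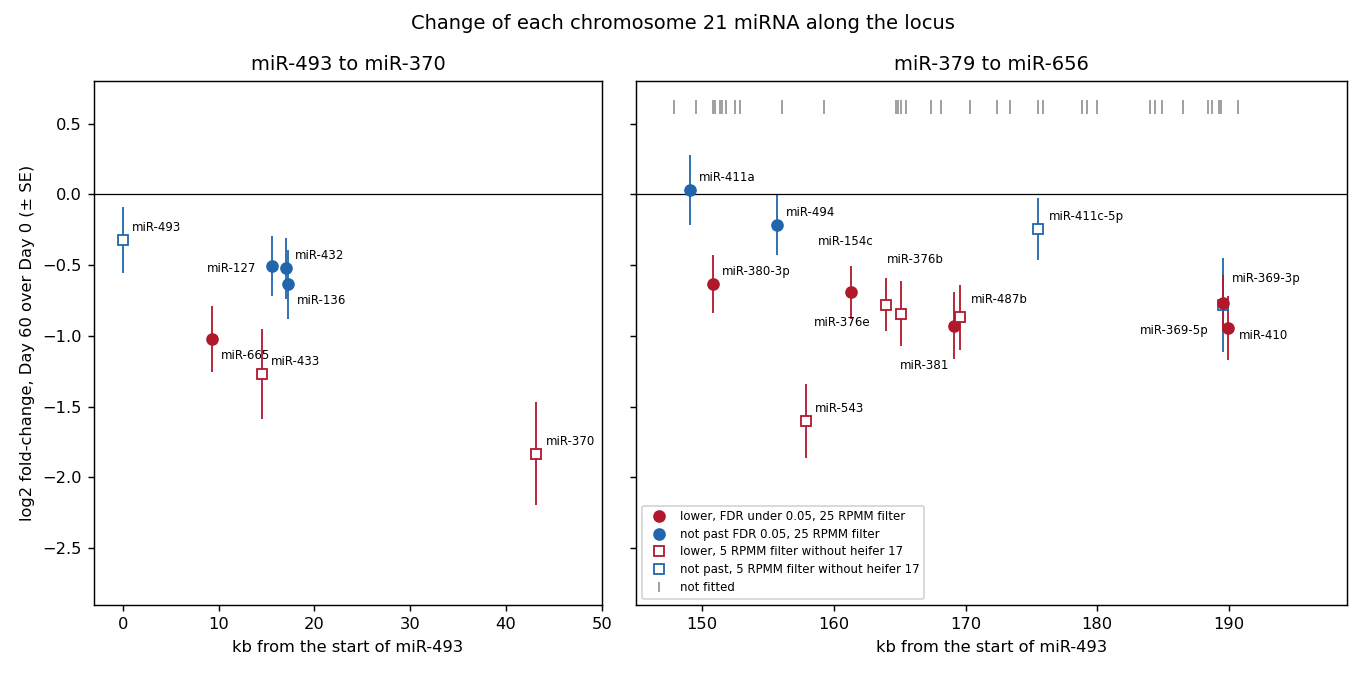
Log2 fold-change of Day 60 over Day 0 with its SE, against distance in kb from the start of miR-493, for the 11 miRNAs of the 25 RPMM fit with 11 heifers (filled circles) and 9 more from the 5 RPMM fit without heifer 17 (open squares); grey ticks mark miRNAs that were not fitted. miR-370 at -1.83 and miR-543 at -1.60, which passed the 5 RPMM filter through Day 0 alone, are the lowest, and miR-411a at 0.03 is the only fitted value above 0.

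Of the remaining 6 miRNAs with more than 10 reads in at least 11 libraries, miR-379, miR-323, miR-654, miR-3956, miR-411c-3p and miR-485, the Day 60 medians ran from 1.39 to 3.76 RPMM and the Day 0 medians from 1.89 to 7.64 RPMM. miR-379, which opens the downstream stretch, reached 59.2 RPMM in Day 60 heifer 17, on 18 reads, against a Day 60 median of 2.43 RPMM and 1.57 to 6.20 RPMM on Day 0. That library thus stood high in miR-379 and miR-494 and low in miR-410. These 6 were not tested.

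Where the table lists both arms of a hairpin, the arms kept their order. The 3p arm of miR-369 took 90.5% of the reads of both arms on Day 60 in 10 libraries and 92.6% on Day 0. miR-380-5p had 1 read on Day 60 and 0 on Day 0, beside 5360 and 5793 reads of miR-380-3p. In miR-411c the 5p arm was the main one, and the 3p arm took 11.8% on Day 60 in 10 libraries and 15.0% on Day 0.

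The tested miRNAs varied together between libraries beyond the difference of the days. Deviations of log2 TMM-normalised levels from the mean of each day gave a median Pearson r of 0.651 over the 55 pairs of the 11, with a range of -0.14 to 0.956 across 22 libraries. Over the 18915 pairs of all tested miRNAs the median r was 0.00528. These correlations are descriptions, without p, since the points share their library and its depth. Within the Day 60 libraries alone the median r over the 55 pairs was 0.588, and within the Day 0 libraries alone 0.814. Without heifer 17 it was 0.711.

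The closest pair was miR-380-3p with miR-154c, at an r of 0.956. For each 100 reads of miR-154c there were 86.7 to 131 reads of miR-380-3p on Day 60 (median 98.2) and 85.5 to 111 on Day 0 (median 96.0). The SD of their log2 ratio was 0.145, the smallest of the 55 pairs, and its variance was 2.92 times what counting alone gives. Whether reads were shared between similar sequences in the counting was not tested, here or for the miR-376, miR-411, miR-154, miR-329 and miR-487 families. miR-127 with miR-432, neighbours in the upstream stretch, had an r of 0.882. miR-381 with miR-410 had one of 0.864, and miR-665 was closest to miR-410 at 0.766, although these lie in different stretches.

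**Figure D5:**
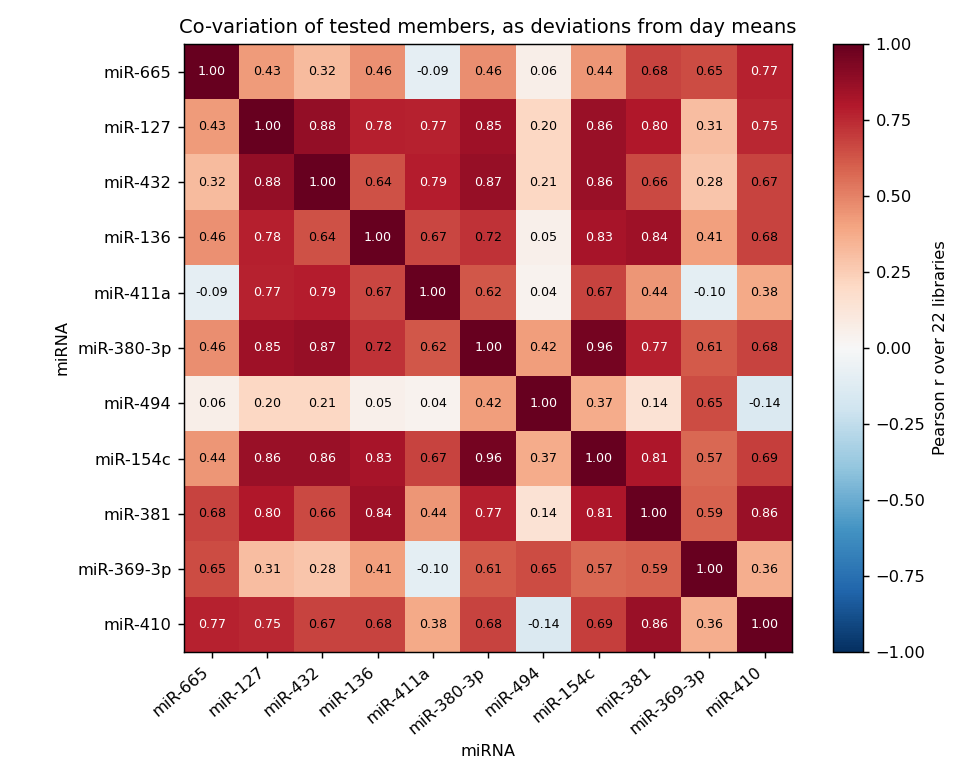
Pearson r between the 11 tested miRNAs over 22 libraries, computed on log2 TMM-normalised levels after the mean of the day was taken off, in genomic order. miR-380-3p and miR-154c reach 0.956, while miR-494 has a median of 0.174 with the other 10.

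miR-494 was the least tied to the rest, with a median r of 0.174 with the other 10 miRNAs and -0.14 with miR-410. For each 100 reads of miR-410 there were 29.1 to 793 reads of miR-494 on Day 60 (median 36.6) and 18.6 to 38.6 on Day 0 (median 27.8). miR-410 and miR-411a, both of the downstream stretch, also parted between the days. For each 100 reads of miR-411a there were 47.5 to 254 reads of miR-410 on Day 60 (median 75.8) and 80.0 to 233 on Day 0 (median 192). This ratio needs no scaling between libraries, and it was lower on Day 60 in 8 of 11 heifers.

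Outside the locus, the tested miRNAs whose deviations were most like the mean of the 11 were miR-214 on chromosome 16, at an r of 0.834 over 22 libraries, miR-452 on chromosome X, at 0.818, miR-497 on chromosome 19, at 0.798, miR-99a-5p on chromosome 1, at 0.792, and miR-130a on chromosome 15, at 0.789. Of these miR-452 was lower on Day 60 (log2 fold-change -0.57, edgeR FDR 0.0365), and the other 4 did not pass.

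Elsewhere on chromosome 21 the tested miRNAs had positive values that did not pass. Of 13 further bovine rows on that chromosome, 2 were tested with edgeR and 0 passed, 0 also at an unadjusted p under 0.05. Of the 13, 1 was higher in 2 of 15 alternative fits. These include the fit with no filter, which takes in untested rows, so the row need not be 1 of the 2 tested. Of the untested rows miR-339a had the most reads, 21489. It averaged 402 ± 713 RPMM on Day 60 and 3.65 ± 2.60 RPMM on Day 0 (SD, n = 11 each). Whether its reads were shared with those of miR-339b was not tested. miR-342, at 65160883, had a log2 fold-change of 0.32 (edgeR FDR 0.180) and miR-345-3p, at 65320313, one of 0.39 (edgeR FDR 0.274). Of 8 miRNAs listed for other imprinted loci, 6 were in the table, 2 were tested with edgeR and 0 passed, though both had an unadjusted p under 0.05. The 6 include miR-1247-5p and miR-1247-3p, untested rows that also count among the 13 on chromosome 21. They lie at 66579435 to 66579492, past the window on the same chromosome. Whether they belong to an imprinted locus other than DLK1-DIO3 was not checked. Of 15 alternative fits, 3 called 1 miRNA of this list lower and 2 called 1 higher, and the fit without heifer 32 called 1 lower. miR-335, in the imprinted MEST gene, had a log2 fold-change of 0.53 (edgeR FDR 0.0829) and miR-296-3p, near GNAS, one of -0.45 (edgeR FDR 0.0915).

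Of 14 miRNAs listed as markers of blood cells 5 were higher on Day 60 and 0 lower. Among all 195 tested 17.4% were higher and 17.9% lower. How particular the 14 are to blood cells was not tested. All 6 erythroid miRNAs were tested, and 2 were higher and 0 lower, miR-451 (log2 fold-change 0.79, edgeR FDR 0.0425) and miR-16b (0.68, edgeR FDR 0.0487), with a median of 0.57 over the 6. These 2 calls were near the threshold. In 7 of 15 alternative fits 0 erythroid miRNAs were higher. The 7 include the fit with the mean erythroid level as a covariate, which is built from these miRNAs and cannot test them. With 1 heifer left out, 0 were higher in 8 of 11 fits (heifers 10, 11, 14, 17, 26, 28, 29 and 31). The summed erythroid level was lower on Day 60 in 5 of 11 heifers, and miR-363 had a log2 fold-change near 0. The sum was 134033 to 388765 RPMM on Day 60 (median 246114) and 74510 to 346917 RPMM on Day 0 (median 197371). None of them was at 0. Of 8 platelet and leukocyte miRNAs 3 were higher and 0 lower, miR-150, miR-142-5p and miR-155, with a median log2 fold-change of 0.54, a summed level of 36572 to 77203 RPMM on Day 60 and 41328 to 60476 RPMM on Day 0, and none at 0. Without heifer 28 1 of the 8 was higher and without heifer 32 5 were. miR-223, miR-126-3p and miR-126-5p of that list had negative values of -0.19, -0.15 and -0.18 that did not pass. The ratio of miR-451 to miR-23a, used as a sign of red cell lysis, was 4.36 to 27.7 on Day 60 (median 8.56) and 0.935 to 13.4 on Day 0 (median 1.83). It was higher on Day 60 in 9 of 11 heifers, and miR-23a itself was lower on Day 60 (log2 fold-change -1.18, edgeR FDR 0.00837).

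With the mean erythroid level as a covariate, edgeR called 0 of the 11 miRNAs of the locus. Of all 195 it called 0 lower and 6 higher, so the loss of calls was not confined to the locus. The 11 were all negative in that fit, 6 of them had an unadjusted p under 0.05, and the smallest FDR was 0.0775, for miR-369-3p. How many of all 195 were negative or had such a p was not counted for that fit. These counts of the 11 therefore stand without a share to set beside them. The median log2 fold-change in that fit was -0.63 over the 11 and -0.0018 over all 195. The median SE over the 11 was 0.257 against 0.218 without the covariate. The part of blood cell miRNAs in the change of the locus was not tested beyond this fit. Scaled to miR-128, which the study used as its endogenous normaliser, 4 of the 11 were lower, and miR-380-3p and miR-154c no longer passed. Of all 195, 20 were lower and 35 higher with that scaling.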

How the data were processed

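The authors prepared libraries with a TruSeq small RNA kit and assigned reads with sRNAbench (Bowtie 0.12.9, per the labels) on bosTau4 and miRBase. They deposited read counts per mature miRNA for 22 plasma libraries and a second deposited table in another unit, normalised RPMM, in which bovine rows and human homologues are scaled separately. The RPMM table served only to find repeated cells, where its value is over 0.2% off the scaling of its library and it and the count equal those of another library. RPMM here were computed from the counts over all miRNA reads, which totalled 304117 to 12775451 per library. Samples were grouped by day and paired by the heifer number in the labels, since both libraries come from the same animal.

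The test was the quasi-likelihood test of edgeR 4.0.16 in R 4.3.3, with TMM normalisation and with day and heifer as terms. It covered the 195 miRNAs over 25 RPMM in more than 8 of the 11 libraries on Day 60 or on Day 0, and p-values were adjusted over them after Benjamini and Hochberg. Bovine and human homologue rows went into the same fit. Alternative tests used DESeq2 1.42.0 and limma 3.58.1, and levels and pictures came from pandas 2.3.3, numpy 2.4.6 and matplotlib 3.10.9 under Python 3.11.15. Log2 levels, differences within heifers and correlations have a pseudocount of 1. The fit was also run on simulated data, as a check that the steps recover large changes set in advance. Recovery of changes as small as those of the locus is not given, so the check is not support for the calls.

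The members of the locus, the named miRNAs and the lists (rest of chromosome 21, other imprinted loci, erythroid, platelet and leukocyte) were chosen with earlier results of these data known. Named were all tested members and untested members with more than 10 reads in at least 11 libraries. Some miRNAs of each list and the 5 non-members most like the mean of the tested members were named as well. Alternatives were other scalings, tests and filters, no block, an erythroid covariate, thinning, repeated cells set to 0 and each heifer left out. Mature sequences, raw reads and RT-qPCR data were not used here.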

Additional observations from a re-analysis of the deposited data

How the results depend on the processing

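The count of 6 lower miRNAs of the locus became 11 of 20 with a filter of 5 RPMM, against 47 of all 265. Of the 9 further miRNAs, 5 passed that filter through Day 0 alone. With the erythroid covariate the count was 0 of 11, and 0 of all 195 were called lower. Some alternatives were chosen after seeing the data. Among these the count was 12 of 20 at 5 RPMM with the repeated cells set to 0, against 49 of all 265. Among these it was also 11 of 54 with no filter and the repeated cells set to 0, against 29 of all 844. The last of them, 5 RPMM without heifer 17, gave 13 of 20, against 45 of all 265. With no filter and the tables as deposited it was 5 of 54, against 17 of all 844. In the other planned fits it was 4 to 9, with 9 for library totals and for upper quartile factors, which moved the median of all tested miRNAs to -0.25 and -0.22, against -0.06 with TMM. The split of all calls was then 57 lower and 11 higher, and 58 lower and 21 higher, against 35 and 34. Without the replicate block, which joins the libraries of a heifer, 7 of the 11 were lower, against 42 of all 195. Leaving out 1 heifer at a time gave 5 to 9, against 18 to 56 of all 195. The mean log2 ratio of the summed reads then ran from -0.82 to -0.64. The count of higher miRNAs of the locus was 0 in every fit run.

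miR-411a changed sign, to -0.16 with library totals, -0.14 with upper quartile factors, -0.0071 with TMM computed without the members, -0.010 with limma-voom and -0.025 with the erythroid covariate. Leaving out 1 heifer at a time took it from -0.11 to 0.15, negative without heifer 14 (-0.02), 26 (-0.03), 28 (-0.08) or 31 (-0.11). miR-494 was 0.087 without the replicate block. The cause of these changes was not tested. Of the 28 miRNAs with more than 10 reads in under 11 libraries no difference was tested at the filter used. Depth limits every value of Day 60 heifer 17, whose total was the lowest.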

Other observations

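The table also lists human homologues with their own rows, and miR-299-3p and miR-889-3p are those of the locus. miR-299-3p had 1 read on Day 60 and 1 on Day 0 over all libraries, and miR-889-3p had 0 reads on Day 60 and 2 on Day 0.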
